A study of Homo sapiens with 4 samples.

Results

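Messenger RNA of 10 genes of the Notch pathway was compared in TPC1 cells treated with a RET inhibitor alone or with a RET and an FGFR inhibitor. The genes were chosen by name: 3 receptors (NOTCH1, NOTCH2, NOTCH3), 3 ligands (JAG1, JAG2, DLL1), 3 transcription factors induced by Notch (HES1, HEY1, HEYL) and the feedback inhibitor NRARP. All 10 were found among the 20372 genes of the deposited table. HES1 fell 2.78-fold when the FGFR inhibitor was added, HEYL had no read, and none of the other 8 passed the test.

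TPC1 is a cell line from a human papillary thyroid cancer whose cells express a CCDC6-RET fusion kinase. The RETi group was treated for 24 h with BLU6864, a selective RET inhibitor, and the RETi + FGFRi group for the same time with BLU6864 plus BGJ398, an inhibitor of FGFR1 to FGFR3, with 2 libraries in each group. Both groups thus carry the RET fusion and RET inhibition, and only BGJ398 differs, so the comparison asks what FGFR inhibition adds and not what RET inhibition does. The labels give the inhibitor dose as 100 µM and the methods of the study give the same figure in nanomolar, so the unit is uncertain. The libraries held 24695040 to 27457040 counts. The labels do not state whether replicates were grown apart, so p-values measure a spread that may be technical. As a model the series is 1 cell line. Among thyroid follicular markers, PAX8 and FOXE1 were well expressed and TG stood at 98 to 149 counts, while TSHR, NKX2-1 and SLC5A5 had 0 to 5 counts in each library. Of 6 epithelial markers, EPCAM and CDH1 had 0 to 3 counts, KRT8, KRT18 and KRT7 were called lower after RETi + FGFRi, and KRT19 had 37 and 40 counts against 42 and 45 (log2 fold change 0.26, not called). Among markers of other cells, PTPRC and CD3E (leukocytes), CDH5 and VWF (endothelium), DCN (fibroblasts) and CALCA (thyroid C cells) had 0 to 6 counts, while the lysosomal gene CD68 had 2277 to 2728 and the collagen gene COL1A1 52 to 95. Neither was called.

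Notch signaling passes between neighbouring cells. A ligand of the Jagged or Delta-like family on one cell binds a Notch receptor on the next, ADAM proteases and then gamma-secretase cut the receptor, and the freed intracellular domain enters the nucleus, where it joins the DNA-binding protein RBPJ and Mastermind coactivators. Genes switched on by this complex include the HES and HEY families of transcriptional repressors and NRARP, which limits the pathway by destabilizing the nuclear complex. HES1 is also known to respond to inputs other than Notch, among them growth factor signaling.

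Counts were tested with edgeR over 12794 genes with enough reads, and a gene was called at an adjusted p under 0.05. By this rule 12.8% of all tested genes were higher with the FGFR inhibitor and 11.3% lower, 24.1% in all, so a call was common. Leaving out RETi replicate 1 cut the 1643 higher and 1446 lower genes to 850 and 653, and leaving out RETi replicate 2 cut them to 691 and 553. Of the 9 Notch genes that could be tested, 1 was lower (HES1) and 0 were higher. At an unadjusted p under 0.05 edgeR also gave 1 lower and 0 higher, a count for which no share of all genes was taken. DESeq2 called 1 of the 9 lower and 0 higher, against 1023 lower and 1258 higher over the 16305 genes with a read. The median log2 fold change of the 9 genes was -0.07, where that of all tested genes was 0.00. Both libraries of one group lay outside the range of the other for 6 of the 9 genes, against 65.1% of all tested genes. In 3 of them (NOTCH2, JAG1, JAG2) the combination libraries stood above, against 32.1% of all tested genes, and in 3 (HES1, HEY1, NRARP) below, against 33.0%. These shares are near the background.

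**Figure D1:**
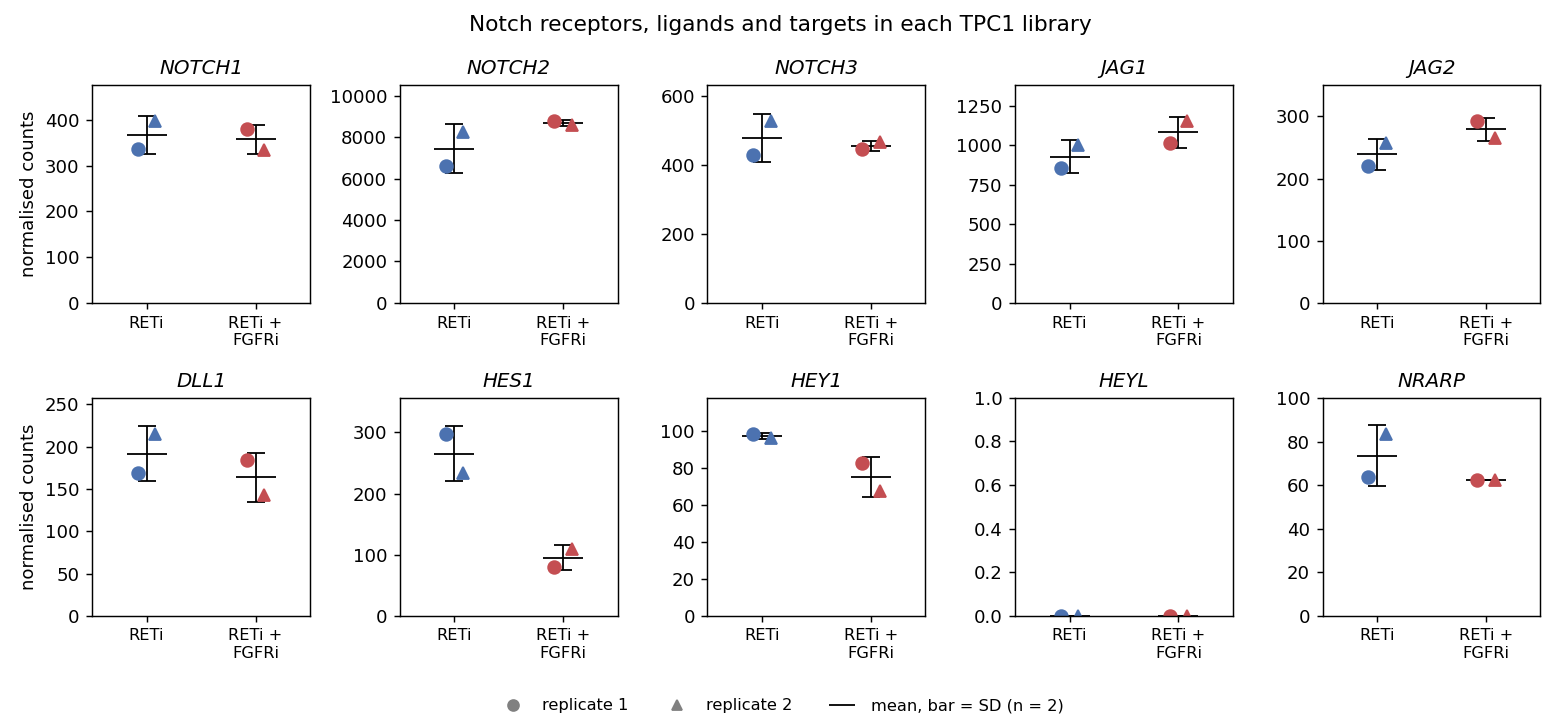
Normalised counts (y axis, from 0, a separate scale for each gene) of the 10 genes in RETi (blue) and RETi + FGFRi (red) libraries, with circles for replicate 1, triangles for replicate 2, and the mean and SD of 2 libraries in black. HES1 stood at 233.0 to 297.1 after RETi and 80.5 to 109.7 after RETi + FGFRi, while the groups of the other genes lie close together and HEYL is at 0 throughout.

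HES1 encodes a basic helix-loop-helix repressor that holds back differentiation in many tissues and also represses its own gene. The gene (ENSG00000114315) lies on chromosome 3, 193853934 to 193856521 in hg19. It had 303 and 243 counts in the RETi libraries and 76 and 109 counts in the RETi + FGFRi libraries. Divided by the size factors of the authors, these are 297.1 and 233.0 normalised counts against 80.5 and 109.7. Both combination libraries lay below the lower RETi library. The group means were 265.1 ± 45.3 and 95.1 ± 20.7 normalised counts (SD, n = 2 each), and the log2 fold change was -1.48 (SE 0.18, 95% interval -1.87 to -1.08, adjusted p = 0.000537, edgeR). Of all tested genes 49, or 0.383%, had a log2 fold change as low as that of HES1 or lower, HES1 included. The call held under each of the 9 alternatives of scaling, filter, tool, replicate block and left-out library, with log2 fold changes from -1.71 without RETi + FGFRi replicate 2 to -1.27 without RETi + FGFRi replicate 1. The keratin markers KRT8, KRT18 and KRT7 moved in the same direction, with log2 fold changes of -0.28, -0.72 and -0.68, while KRT19 had 0.26. Their part in the HES1 result was not tested.

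The upstream sequence of HES1 is shown because HES1 was called lower in the main edgeR fit. Those of HEYL and NRARP are shown because they are the other targets among the 10 for which a sequence was at hand. Each line gives the 250 bases before the start site (RefSeq, GRCh38.p14, 5′ to 3′ on the strand of the gene), with TGGGAA, the core of the RBPJ site, or its reverse complement in capitals. HES1 is read from chr3:194135898-194136147 (plus strand), HEYL from chr1:39639644-39639893 (minus strand) and NRARP from chr9:137302272-137302521 (minus strand).
HES1: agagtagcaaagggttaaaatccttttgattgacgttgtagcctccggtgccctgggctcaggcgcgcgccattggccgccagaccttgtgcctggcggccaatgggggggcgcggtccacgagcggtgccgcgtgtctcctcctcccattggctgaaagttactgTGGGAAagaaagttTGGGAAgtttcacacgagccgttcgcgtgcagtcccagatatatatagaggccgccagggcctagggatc
HEYL: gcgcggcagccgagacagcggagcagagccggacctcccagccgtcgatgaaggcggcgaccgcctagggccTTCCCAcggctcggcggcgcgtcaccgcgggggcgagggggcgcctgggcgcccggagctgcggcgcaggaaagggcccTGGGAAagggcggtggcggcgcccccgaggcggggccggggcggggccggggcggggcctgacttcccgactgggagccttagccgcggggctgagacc
NRARP: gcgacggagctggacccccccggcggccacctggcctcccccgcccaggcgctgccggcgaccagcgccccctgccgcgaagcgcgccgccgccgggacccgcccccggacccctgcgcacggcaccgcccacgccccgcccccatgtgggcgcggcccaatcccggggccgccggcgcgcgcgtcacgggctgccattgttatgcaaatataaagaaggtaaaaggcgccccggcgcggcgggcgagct
HES1 held 2 matches, both on the strand of the gene and starting 84 and 70 bases before the start site, and HEYL held 2, starting 178 bases (reverse strand) and 99 bases before it. NRARP held no match in this window. Of 35116 promoters of the same length, 20.8% held at least 1 match on either strand and 2.9% held at least 2. RefSeq sequences were matched for 8 of the 10 genes, all except DLL1 and HEY1, and only HES1 and HEYL of the 8 held TGGGAA. None of the 8 held CCGGAA, which 14.5% of all promoters held. CCGGAA is a longer form of the ETS site. Its shorter core, GGAA, was not counted and lies within TGGGAA. None of the 8 held CACGTG, an E box that HES and HEY proteins can bind, which 6.34% held. CACNAG, the N box bound by HES proteins, was found in HES1 and NOTCH3 and in 32.0% of all promoters. These are letter matches only. Binding sites spelled with other letters were not searched for and stay in lower case, so the capitals need not mark the sites that Notch uses. HES1 and HEYL both held 2 matches to TGGGAA, and HES1 had 76 to 303 counts in these cells where HEYL had none.

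The remaining target genes did not pass the test. HEY1 (ENSG00000164683, chromosome 8, 80676245 to 80680098), a related repressor best known from heart, vessel and bone development, had 98.1 and 95.9 normalised counts after RETi and 82.6 and 67.5 after RETi + FGFRi. Both combination libraries lay below both RETi libraries, and the log2 fold change was -0.37 (SE 0.19, 95% interval -0.79 to 0.04, adjusted p = 0.168, edgeR), or -0.52 to -0.23 with 1 library left out. NRARP (ENSG00000198435, chromosome 9, 140194083 to 140196703) had 63.7 and 83.4 against 62.5 and 62.4 normalised counts. RETi replicate 1 thus lay next to the combination libraries, and the log2 fold change was -0.24 (SE 0.21, 95% interval -0.71 to 0.23, adjusted p = 0.438, edgeR). Leaving out RETi replicate 2 gave -0.03, and leaving out RETi replicate 1 gave -0.42 for NRARP. HEY1 and NRARP had only 59 to 100 counts in a library, and the value of HES1, -1.48, lies outside both of their intervals. HEYL (ENSG00000163909, chromosome 1, 40089825 to 40105617), a further HEY repressor, had 0 counts in all 4 libraries, which allows up to 3 counts in each, or 0.109 to 0.121 CPM (counts scaled to a common library total). This limit covers counting error only.

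Further genes of the HES and HEY families, from a list of the pathway that extends beyond the 10, showed no common direction. HES4 had 85.3 and 71.0 normalised counts after RETi and 87.9 and 125.8 after RETi + FGFRi (log2 fold change 0.45, adjusted p = 0.141, edgeR), and without RETi + FGFRi replicate 1 it was called higher (log2 fold change 0.69, adjusted p = 0.0147). HES2 had 154.0 and 171.7 against 201.2 and 204.4 normalised counts (log2 fold change 0.31, adjusted p = 0.115). HES6, which in mouse counteracts HES1 and promotes differentiation, had 113.8 and 130.4 against 91.1 and 99.7 (log2 fold change -0.36, adjusted p = 0.144). HES7 had 8 to 20 counts with overlapping groups, and HES5 and HEY2 had 0 to 3 counts and were not tested. HES1 was the only 1 of 6 tested HES and HEY genes to be called, where 24.1% of all tested genes were called. The 5 others spanned log2 fold changes of -0.37 to 0.45.

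**Figure D2:**
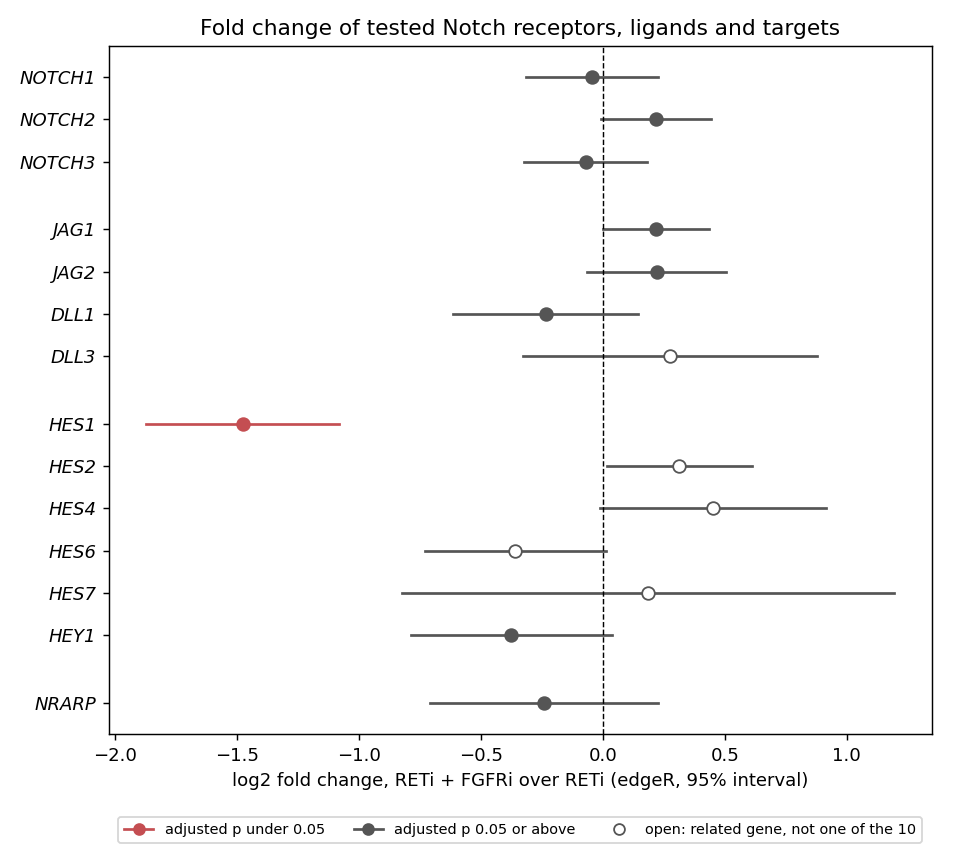
Log2 fold change of RETi + FGFRi over RETi (x axis) with its 95% interval from edgeR for receptors, ligands, HES and HEY factors and NRARP, with red for an adjusted p under 0.05 and open symbols for related genes that are not among the 10. The interval of HES1, from -1.87 to -1.08, lies apart from that of HEY1, from -0.79 to 0.04, and 0 lies within or at the edge of the other intervals apart from that of HES2, from 0.02 to 0.61.

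None of the receptors was called in the main edgeR fit, with all 4 libraries and no replicate block. NOTCH1 (ENSG00000148400, chromosome 9, 139388896 to 139440314), the receptor most often altered in leukemia, had 337.3 and 397.0 normalised counts after RETi and 380.2 and 334.2 after RETi + FGFRi. The groups overlapped, and the log2 fold change was -0.04 (SE 0.12, 95% interval -0.31 to 0.23, adjusted p = 0.826, edgeR). NOTCH3 (ENSG00000074181, chromosome 19, 15270444 to 15311792), known for its role in vascular smooth muscle, had 427.6 and 525.5 against 444.8 and 465.1 normalised counts. Both combination libraries lay between the RETi libraries, and the log2 fold change was -0.07 (SE 0.11, 95% interval -0.32 to 0.18, adjusted p = 0.691). The signs of NOTCH1 and NOTCH3 turned when single libraries were left out, so they have no direction to report.

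NOTCH2 (ENSG00000134250, chromosome 1, 120454176 to 120612240) had 6615 and 8279 normalised counts after RETi and 8778 and 8584 after RETi + FGFRi. Both combination libraries lay above the RETi libraries, but the RETi libraries differed from each other by more than the nearest libraries of the 2 groups. The log2 fold change was 0.22 (SE 0.10, 95% interval -0.01 to 0.45, adjusted p = 0.148, edgeR). Leaving out RETi replicate 1 gave 0.07, and leaving out RETi replicate 2 gave 0.39. With the replicate number as a block, NOTCH2 was called higher (log2 fold change 0.23, adjusted p = 0.047, edgeR). NOTCH2NL, a partial copy of NOTCH2 on the same chromosome (145209119 to 145291972), had 166.7 and 174.5 against 248.9 and 257.7 normalised counts and was called higher (log2 fold change 0.57, adjusted p = 0.00965). This gene was singled out after its values were seen, and no source used here says how reads shared by both copies were counted, so both counts are uncertain. NOTCH4, the receptor of endothelium, had 2 to 6 counts and was not tested.

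None of the ligands was called with all 4 libraries in edgeR. JAG1 (ENSG00000101384, chromosome 20, 10618332 to 10654694), a ligand widely expressed in epithelia and tumors, had 855.1 and 1003 normalised counts after RETi and 1013 and 1154 after RETi + FGFRi. The upper RETi library and the lower combination library nearly met, and the log2 fold change was 0.22 (SE 0.099, adjusted p = 0.133, edgeR). Without RETi + FGFRi replicate 1 JAG1 was called higher (log2 fold change 0.31, adjusted p = 0.0237), and without RETi replicate 1 the log2 fold change was 0.11. JAG2 (ENSG00000184916, chromosome 14, 105607318 to 105635161), the second Jagged ligand, had 220.6 and 257.0 against 292.3 and 265.8 normalised counts. The groups did not overlap, and the log2 fold change was 0.22 (SE 0.13, 95% interval -0.06 to 0.51, adjusted p = 0.237), or 0.12 to 0.34 with 1 library left out.

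DLL1 (ENSG00000198719, chromosome 6, 170591294 to 170599561), a Delta-like ligand with roles in neural and intestinal progenitors, had 168.7 and 214.8 normalised counts after RETi and 184.3 and 143.0 after RETi + FGFRi. The groups overlapped (log2 fold change -0.23, SE 0.17, 95% interval -0.61 to 0.14, adjusted p = 0.347, edgeR). DLL1 was at -0.05 without RETi replicate 2 or RETi + FGFRi replicate 2, at -0.39 without RETi replicate 1 and at -0.42 without RETi + FGFRi replicate 1. DLL3, which in mouse acts inside the cell and dampens Notch signaling, had 26.5 and 28.8 against 32.8 and 34.2 normalised counts (log2 fold change 0.28, adjusted p = 0.497). DLL4, the ligand of sprouting vessels, had 1 count in each library. Of the 9 tested members 7 stood lower in RETi replicate 1 than in RETi replicate 2, HES1 and HEY1 being the exceptions, while this held for 50.3% of all tested genes. In the combination group 3 of the 9 stood lower in replicate 1 than in replicate 2.

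Levels can be set against each other between genes only per length, so normalised counts were divided by the length of the canonical transcript. On this scale NOTCH2 stood at 579 to 768 per kilobase in the 4 libraries, NOTCH3 at 49.3 to 60.5 and NOTCH1 at 34.9 to 41.5. NOTCH2 thus led the receptors in every library, and NOTCH3 stood above NOTCH1 in every library without overlap. NOTCH2 made up 87.1% and 87.6% of the summed level of the 4 receptors after RETi and 89.4% in both libraries after RETi + FGFRi. Lengths of merged exons gave 84.4% to 87.1% in its place. Among the ligands JAG1 led with 144.0 to 194.2 per kilobase, JAG2 at 38.2 to 50.6 and DLL1 at 37.8 to 56.8 overlapped, and DLL3 followed at 13.2 to 17.1. JAG1 made up 59.3% to 65.7% of the summed level of the 5 ligands, or 50.1% to 57.4% with lengths of merged exons.

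The order of the target genes differed between the groups. After RETi HES1 led with 188.7 and 148.0 normalised counts per kilobase, above HES6 (83.2 and 95.3) and HES4 (96.4 and 80.2), which overlapped. After RETi + FGFRi HES4 stood at 99.3 and 142.2, and HES1 at 51.1 and 69.7 overlapped with HES6 at 66.6 and 72.9. Within a library the level of HES1 was 1.96 and 1.85 times that of HES4 after RETi and 0.515 and 0.490 times that of HES4 after RETi + FGFRi. The same ratios were 1.89, 1.78, 0.497 and 0.473 with lengths of merged exons. HEY1 at 30.7 to 44.6, HES2 at 36.1 to 48.0 and NRARP at 23.6 to 31.6 per kilobase followed. HEY1 stood above HES2 after RETi (44.6 and 43.6 against 36.1 and 40.3). After RETi + FGFRi it stood below HES2 (37.6 and 30.7 against 47.2 and 48.0). This change of place depended on which length was used. With lengths of merged exons HEY1 stood below HES2 after RETi as well (17.9 and 17.5 against 28.5 and 31.7). Neither gene was called.

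**Figure D3:**
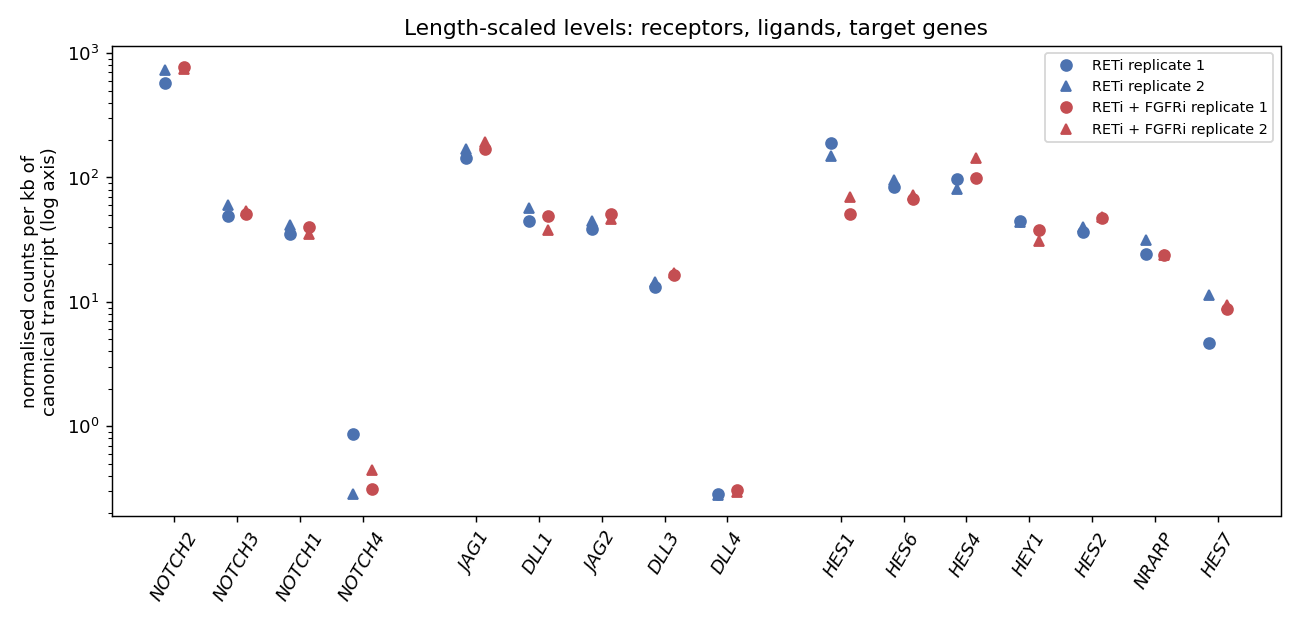
Normalised counts per kilobase of canonical transcript (log y axis) of receptors, ligands and target genes with reads in every library, blue for RETi and red for RETi + FGFRi, circles for replicate 1 and triangles for replicate 2. NOTCH2 (579 to 768) and JAG1 (144.0 to 194.2) lead the receptors and ligands in every library, and HES1 moves from above HES4 and HES6 after RETi to below HES4 after RETi + FGFRi.

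The wider pathway list holds 55 further genes, of which 48 were tested. Of these 5 were higher, 5 lower and 38 did not pass, with a median log2 fold change of -0.03, so 20.8% of them were called where 24.1% of all tested genes were. The lower genes included those of 2 enzymes that add sugars to Notch receptors. LFNG, a Fringe glycosyltransferase, fell from 938.5 and 971.4 to 772.0 and 802.4 normalised counts (log2 fold change -0.28, adjusted p = 0.0279, edgeR), and POFUT1, which attaches fucose, from 2350 and 2324 to 1936 and 1932 (log2 fold change -0.28, adjusted p = 0.0186). DNER, a neuronal protein described as a Notch ligand, fell from 126.5 and 124.7 to 87.9 and 62.4 (log2 fold change -0.75, adjusted p = 0.0194). The other genes called lower were the acetyltransferase gene KAT2B (log2 fold change -0.30, adjusted p = 0.0273) and the presenilin gene PSEN2 (log2 fold change -0.26, adjusted p = 0.0498). POFUT1 did not pass without RETi replicate 1 or without RETi replicate 2, and the other 4 were lost with DESeq2 and in both of these fits. Leaving out RETi + FGFRi replicate 1 also lost LFNG and PSEN2. Leaving out RETi + FGFRi replicate 2 also lost DNER, KAT2B and PSEN2. With other size factors (adjusted p = 0.0548, edgeR) and with no filter (0.0565) PSEN2 did not pass either.

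The higher genes were those of large nuclear cofactors and of ubiquitin ligases. The coactivator genes EP300 and CREBBP rose from 1730 and 2184 to 2579 and 2602 normalised counts (log2 fold change 0.40, adjusted p = 0.0168) and from 2402 and 3062 to 3503 and 3765 (log2 fold change 0.41, adjusted p = 0.0185). SPEN, a corepressor that binds RBPJ, rose from 1347 and 1533 to 2117 and 1765 (log2 fold change 0.43, adjusted p = 0.0138). MIB2, a ligase that acts on Notch ligands, rose from 774.7 and 876.5 to 1085 and 1038 (log2 fold change 0.36, adjusted p = 0.0158). The Deltex gene DTX4 had a log2 fold change of 0.33 (adjusted p = 0.0302). DTX4 did not pass with DESeq2 (adjusted p = 0.0772), nor without RETi replicate 2 (log2 fold change 0.42). Without RETi replicate 1 all 5 were lost, with adjusted p of 0.162 for EP300, 0.175 for CREBBP, 0.073 for SPEN, 0.13 for MIB2 and 0.217 for DTX4. None of the 10 further genes passed under every alternative, unlike HES1.

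Other genes of the signal path were not called in the main edgeR fit. RBPJ, named for its role although its p did not select it, had 3430 and 3327 normalised counts after RETi and 3177 and 3295 after RETi + FGFRi (log2 fold change -0.07, adjusted p = 0.546, edgeR). The protease genes ADAM10 and ADAM17 had log2 fold changes of -0.11 and -0.06, and the gamma-secretase genes NCSTN and APH1A had -0.18 and -0.10. The Mastermind gene MAML3 had -0.20. HDAC1 and CTBP2, whose products serve in corepressor complexes, lay just outside the threshold (adjusted p = 0.0513 and 0.0502), as PSEN2 lay just inside it, and both were called lower when scaled by library totals (0.0293 and 0.0323). CTBP1 had a log2 fold change of -0.11. The glycosylation genes POGLUT1 and RFNG had -0.19 and 0.04, DLK2 had -0.11, and the Deltex genes DTX3 and DTX3L had 0.25 and 0.23. Both Deltex genes were called higher without RETi + FGFRi replicate 2 (adjusted p = 0.0482 and 0.00517).

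**Figure D4:**
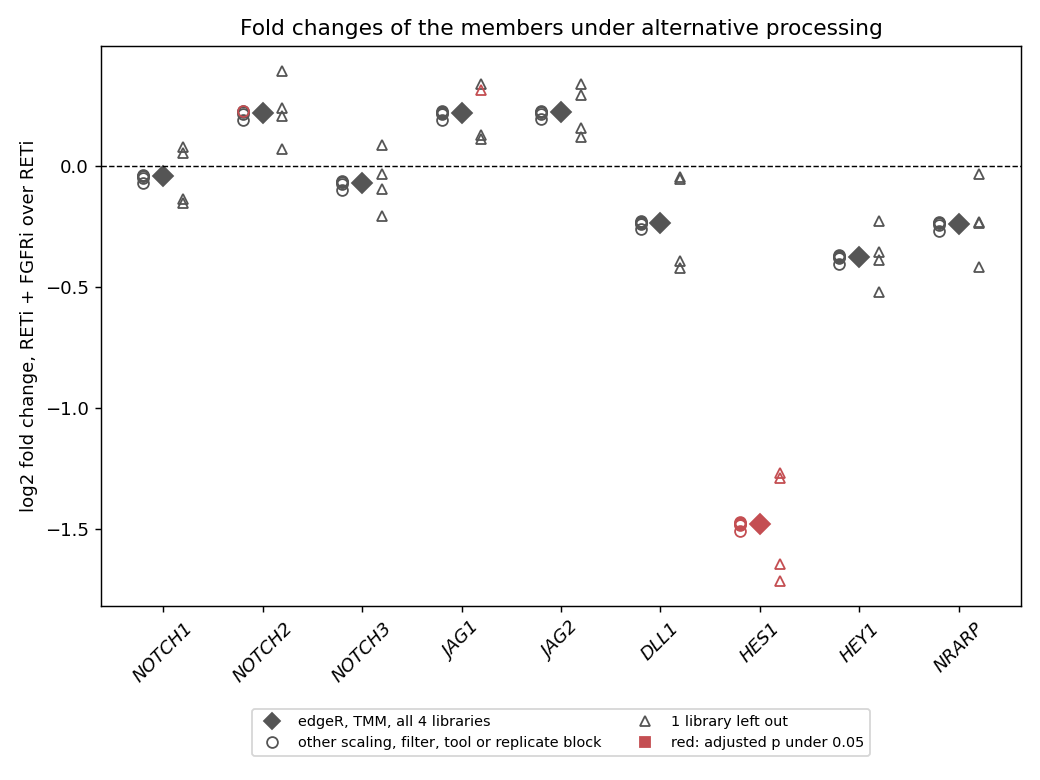
Log2 fold change of RETi + FGFRi over RETi (y axis) of the 9 tested genes with all 4 libraries in edgeR (diamonds), under other scaling, filter, tool or the replicate block (circles) and with 1 library left out (triangles), in red where the adjusted p is under 0.05. HES1 stays between -1.71 and -1.27 and red throughout, while NOTCH2 and JAG1 are red under 1 alternative each and NOTCH1 and NOTCH3 lie on both sides of 0.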

How the data were processed

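RNA of TPC1 cells was sequenced in 4 libraries, grouped by the labels. The processing notes of the submitters list hg19, STAR 2.3 and DESeq2. The labels describe single-end reads, whereas the methods section has a paired-end flow cell and a newer aligner release. No source used here gives the counting tool or its use of strand. The authors deposited raw counts per gene, and normalised counts, a signal equal to the count divided by 1 factor per library. Columns of the authors' own DESeq2 comparison were not used.

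The libraries held 24695040 to 27457040 counts. Differences were tested by edgeR 4.0.16 (R 4.3.3, TMM scaling, filterByExpr, quasi-likelihood F-test, no covariates, 4 libraries in 1 fit, Benjamini-Hochberg over 12794 genes). Alternatives were DESeq2 1.42.0, other size factors, library totals, no filter, the replicate number as a block and each library left out. The procedure was tested on simulated data with the same spread setting for every gene and fewer changed genes than were called here. That test therefore gives no error rate for the calls in these libraries. The 95% interval uses the residual and prior degrees of freedom. None of the 10 genes overlaps another gene of the table in the deposited coordinates. Lengths came from GENCODE v44 by gene identifier, and lengths of merged exons were added after seeing the data. Promoter sequences came from RefSeq.

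The members, the wider list of 65 genes and the alternatives were chosen with earlier results of these data known. All 10 members were named, then the other receptors, ligands and HES or HEY genes, then up to 4 tested genes with the smallest p in each further role. Cell type markers were chosen to check the label, and the keratins among them are also given beside HES1. Some genes of these lists are not reported here.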

Additional observations from a re-analysis of the deposited data

How the results depend on the processing

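HES1 kept its direction and its call under each of the 9 alternatives. Of 81 alternative values for the 9 tested members, 76 kept direction and side of the threshold. The exceptions were NOTCH2, called higher with the replicate block (log2 fold change 0.23, adjusted p = 0.047), JAG1, called higher without RETi + FGFRi replicate 1, and the signs of NOTCH1 and NOTCH3. Leaving out 1 library in turn, log2 fold changes ranged from -0.15 to 0.08 for NOTCH1, -0.21 to 0.09 for NOTCH3, 0.11 to 0.34 for JAG1, -0.31 to 0.97 for HES7 and -0.02 to 0.11 for RFNG. NOTCH1 was at 0.080 without RETi replicate 2 and 0.053 without RETi + FGFRi replicate 2, NOTCH3 at 0.087 without RETi replicate 2, HES7 at -0.31 without RETi replicate 1, and RFNG at -0.019 without RETi replicate 1 and -0.0034 without RETi + FGFRi replicate 1. Counts of called genes then ranged from 691 to 1942 higher and 553 to 1503 lower over all genes, 0 to 1 higher and 1 to 1 lower among the 10, and 0 to 7 higher and 1 to 4 lower in the wider list with the 10, where DESeq2 called 2 lower in place of 6. With the replicate block 2041 genes were higher and 1738 lower, and 1 of the 10 was higher. The block also brought HDAC1 and CTBP2 (lower, adjusted p = 0.0447 and 0.0402) and DTX3L (higher, 0.038) past the threshold. The labels share only a number: deviations of same-numbered libraries from their group means had a correlation of 0.025 over 12794 genes. A left-out library leaves 1 sample in a group, assumed to vary like the other group. Causes of these shifts were not tested. With 59 to 100 counts in a library for HEY1 and NRARP, changes of the size seen did not pass the test.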
